A study of Homo sapiens with 12 samples.

Results

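The Wnt feedback and stem cell genes described here are AXIN2, SP5, NKD1, ZNRF3, RNF43, LGR5, NOTUM, ASCL2, APCDD1 and TNFRSF19, 10 genes chosen by name. The choice was made with earlier results of these data known. Of the 10 genes, 7 had a row in each of the 3 deposited comparisons, among 12756 genes in all: AXIN2, SP5, NKD1, ZNRF3, RNF43, NOTUM and TNFRSF19. LGR5, ASCL2 and APCDD1 had no row under these or older names and were not analysed here. AXIN2, RNF43 and NOTUM lie on chromosome 17, SP5 on chromosome 2, TNFRSF19 on chromosome 13, NKD1 on chromosome 16 and ZNRF3 on chromosome 22 in the RefSeq annotation, and all 7 are protein-coding. The data are polyA RNA-seq of HCT116, an established human colorectal carcinoma line, harvested 48 hours after seeding. The groups were AGO2 knockout cells, ANKRD52 knockout cells, cells lacking ANKRD52 and CSNK1A1 together (the double knockout), and the parental line, with 3 labelled replicates each and 12 libraries in all. The ANKRD52 knockout is shared by the single and the double mutant, so their difference bears on the added loss of CSNK1A1. Any other difference between these lines cannot be told apart from that loss. The labels give no clone identity, guide or passage for any knockout, nor whether replicates came from separate cultures, and the p-values therefore reflect spread among these libraries, which may be technical.

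In the canonical Wnt pathway, beta-catenin is marked for destruction by a complex of AXIN, APC, GSK3 and casein kinase 1 alpha, the product of CSNK1A1, whose priming phosphorylation comes first. When the complex is inactive, beta-catenin enters the nucleus, binds TCF/LEF factors and switches on target genes. Many of these targets act back on the pathway as inhibitors, and others mark stem cells at the base of the intestinal crypt. HCT116 cells carry a mutant beta-catenin allele that lacks the serine phosphorylated by casein kinase 1 alpha, beside a normal allele. AGO2 carries microRNAs to their target messages, and ANKRD52 serves the phosphatase PP6 as a regulatory subunit. The design text asks which transcripts differ between parental cells and cells deficient in each factor.

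The files are the authors' own comparisons and hold no values of single libraries. Each gene has a log2 fold change, knockout over parental, and a mean log2 CPM (read counts scaled to library size) over the libraries. Depth per library is unknown. Group levels in CPM, given below, were worked out from the mean and the 3 fold changes, taking the 4 groups as equal in size, and carry no spread of their own. The lowest mean log2 CPM of any gene in the tables was -1.17, and each of the 7 genes had a level above 1 CPM in all 4 groups. These levels are not scaled to gene length, so they are compared between groups and not between genes. The standard errors are approximate, rebuilt from each fold change and its likelihood ratio. A gene was called where the authors' edgeR p, adjusted over all genes by Benjamini-Hochberg (BH), was under 0.05. In bulk RNA, a change in every cell and a change in the share of cells with a high level cannot be told apart.

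The targeted genes and line markers were read first, from the authors' deposited tables. In the AGO2 knockout AGO2 stood at -1.07 on the log2 scale (BH-adjusted p = 0.0477), and CSNK1A1 stood at -2.42 in the double knockout (BH-adjusted p = 1.71e-10). ANKRD52 had 0.03 in the ANKRD52 knockout (BH-adjusted p = 0.915) and -0.65 in the double knockout (BH-adjusted p = 2.32e-05), so its RNA level did not mark the ANKRD52 knockout. In the authors' deposited table ANKRD52 RNA rose by 0.85 on the log2 scale in the AGO2 knockout (BH-adjusted p = 8.78e-07). Among 8 colorectal epithelial markers 7 had a row, with LGALS4 the exception. Of these 7, 0 rose and 0 fell in the AGO2 knockout (3.38% and 2.72% of all genes), with 1 at an unadjusted p under 0.05 by edgeR. In the ANKRD52 knockout 0 rose and 2 fell (7.62% and 6.04% of all genes), and in the double knockout 6 rose and 0 fell (22.9% and 20.1% of all genes). Of 10 markers of other cell types 4 had a row. In the double knockout LYZ (log2 fold change 6.77), VWF (2.25) and ACTA2 (0.76) rose and COL1A1 had 0.24 in the authors' deposited table, while PTPRC, CD3E, PECAM1, COL3A1, DCN and HBB had no row. The levels were low: LYZ had 8.63 CPM in the double knockout against 0.0788 CPM in the parental line. VWF had 2.53 against 0.530 CPM, and ACTA2 15.9 against 9.40 CPM. The part of these marker changes in the results on Wnt genes was not tested.

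SP5 is shown in sequence because it rose with AXIN2 in the knockouts described next and because its start region holds matches to the TCF/LEF element. The RefSeq table for GRCh38.p14 held start regions for 3 of the 7 genes, SP5, RNF43 and TNFRSF19, each 250 bases before to 50 bases after a transcription start. These were searched on both strands for CTTTGAT and CTTTGAA, 2 forms of the element bound by TCF/LEF factors, and no matches overlapped. The SP5 window, chr2:170715087-170715386 on the plus strand, is printed 5′ to 3′ with the 3 matches in capitals:
SP5: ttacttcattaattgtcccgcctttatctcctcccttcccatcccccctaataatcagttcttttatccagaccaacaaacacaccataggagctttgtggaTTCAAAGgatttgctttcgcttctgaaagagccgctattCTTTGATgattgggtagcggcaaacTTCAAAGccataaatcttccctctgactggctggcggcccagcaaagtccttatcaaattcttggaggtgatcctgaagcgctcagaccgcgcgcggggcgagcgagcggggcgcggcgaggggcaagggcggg
The matches begin 148, 109 and 84 bases before the start. Of 35116 windows of this length in the table, 6.86% held at least 1 match and 0.0256% held at least 3. Because the SP5 window was shown for its matches, these shares are a description and not a test of it. The 2 windows of RNF43 and the 2 of TNFRSF19 held 0 matches, which says only that these letters are not in those windows. A match is a description of the sequence and not a bound site.

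In the double knockout all 7 measured genes rose, against 22.9% of all genes called higher and 20.1% called lower. Because the set was chosen with earlier results known, this count only describes these 7 genes. Their median log2 fold change was 3.04, against 0.01 over all genes. The smallest was that of RNF43 at 1.24 and the largest that of NOTUM at 6.31, in the authors' deposited table. In the ANKRD52 knockout AXIN2 and SP5 rose, 2 of 7, against 7.62% of all genes called higher and 6.04% called lower. This count was 1 at an adjusted p under 0.01 and 0 when the likelihood ratios were read against F with 1 and 8 degrees of freedom in place of chi-square. In the AGO2 knockout 0 of 7 passed by edgeR, and 0 had an unadjusted p under 0.05, against 3.38% of all genes called higher and 2.72% called lower.

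**Figure D1:**
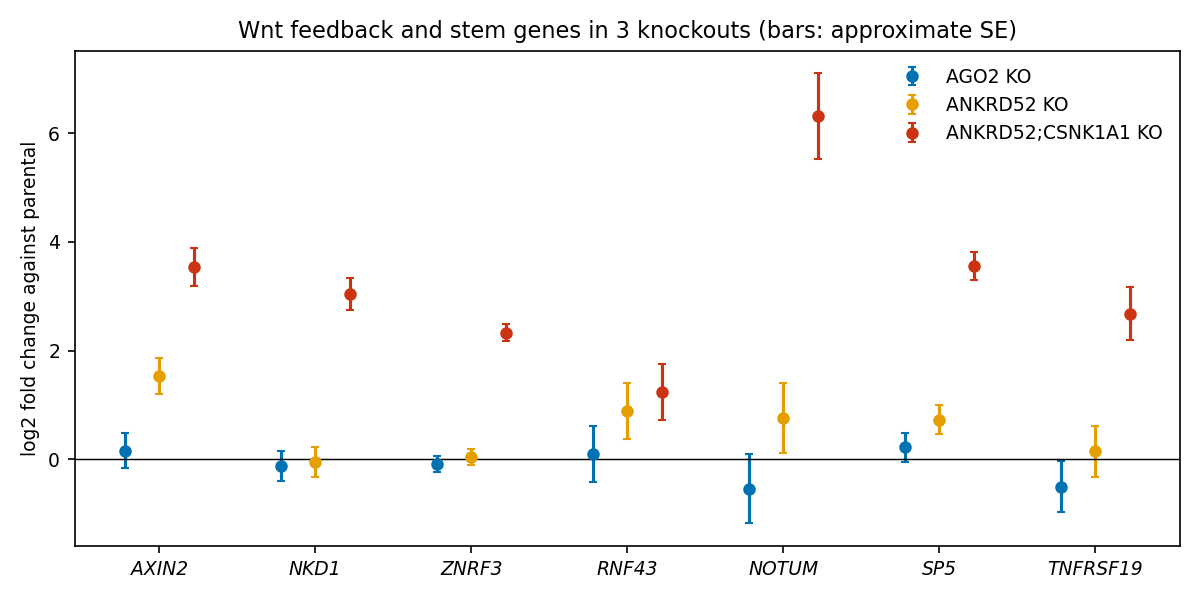
Log2 fold change against parental for each of the 7 genes in the AGO2 knockout, the ANKRD52 knockout and the double knockout, with bars of 1 approximate standard error. The double knockout lies highest for each gene, while the AGO2 knockout lies between -0.53 and 0.23.

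AXIN2 and NKD1 restrain the pathway inside the cell: AXIN2 is a scaffold of the beta-catenin destruction complex, and NKD1 binds Dishevelled. The implied level of AXIN2 was 58.0 CPM in the AGO2 knockout, 150 CPM in the ANKRD52 knockout and 602 CPM in the double knockout, against 51.8 CPM in the parental line. The ANKRD52 knockout thus lay above the AGO2 knockout and the parental line, and the double knockout lay above all 3. Its log2 fold change in the authors' deposited tables was 0.16 (approximate SE 0.32, BH-adjusted p = 0.818) in the AGO2 knockout, 1.53 (SE 0.33, BH-adjusted p = 0.000205) in the ANKRD52 knockout and 3.54 (SE 0.36, BH-adjusted p = 2.58e-21) in the double knockout. These are 2.89-fold and 11.6-fold rises in the ANKRD52 knockout and the double knockout. The rise in the ANKRD52 knockout did not pass with the F reading (BH-adjusted p = 0.0932).

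For NKD1 the implied level was 19.4 CPM in the AGO2 knockout, 20.4 CPM in the ANKRD52 knockout and 173 CPM in the double knockout, against 21.0 CPM in the parental line. Only the double knockout passed the test for NKD1, with an 8.22-fold rise in the authors' deposited table (log2 fold change 3.04, SE 0.30, BH-adjusted p = 1.26e-22). The ANKRD52 knockout had -0.04 in the authors' deposited table, with an approximate 95% interval of -0.59 to 0.50. The AGO2 knockout had -0.12 (BH-adjusted p = 0.852) in the authors' deposited table.

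ZNRF3 and RNF43 are related transmembrane ubiquitin ligases that remove Frizzled receptors from the cell surface. ZNRF3 had an implied level of 30.7 CPM in the AGO2 knockout, 33.7 CPM in the ANKRD52 knockout and 164 CPM in the double knockout, against 32.6 CPM in the parental line. Its 5.03-fold rise in the double knockout had the smallest approximate error of the 7 genes and the smallest adjusted p in the authors' deposited table (log2 fold change 2.33, SE 0.15, BH-adjusted p = 2.11e-49). In the authors' deposited tables ZNRF3 had -0.09 (BH-adjusted p = 0.792) in the AGO2 knockout and 0.05 (BH-adjusted p = 0.876) in the ANKRD52 knockout, and the interval of the second ran from -0.24 to 0.34.

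The implied RNF43 level was 122 CPM in the AGO2 knockout, 210 CPM in the ANKRD52 knockout and 267 CPM in the double knockout, against 113 CPM in the parental line. RNF43 was the weakest of the calls: it rose 2.36-fold in the double knockout in the authors' deposited table (log2 fold change 1.24, SE 0.52, BH-adjusted p = 0.0428). The F reading ended this call (BH-adjusted p = 0.109). In the ANKRD52 knockout it had 0.89 (BH-adjusted p = 0.262) and in the AGO2 knockout 0.11 (BH-adjusted p = 0.932) in the authors' deposited tables. Its errors were wide: the median over the 3 comparisons exceeded that of 99.5% of the 1205 genes within 0.5 log2 CPM of it. By the same measure the errors of AXIN2, NKD1 and TNFRSF19 were wide too, above 97.7%, 97.2% and 98.2% of like genes. Those of SP5 and ZNRF3 were above 83.2% and 81.9%.

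NOTUM, a secreted enzyme that removes the lipid from Wnt proteins, had the largest rise. Its implied level was 3.28 CPM in the AGO2 knockout, 8.04 CPM in the ANKRD52 knockout and 377 CPM in the double knockout, against 4.75 CPM in the parental line. The double knockout stood 79.3-fold above parental in the authors' deposited table (log2 fold change 6.31, SE 0.79, BH-adjusted p = 5.48e-14), the 57th highest of 12756 genes. In the authors' deposited tables NOTUM had -0.53 in the AGO2 knockout (BH-adjusted p = 0.679) and 0.76 in the ANKRD52 knockout (BH-adjusted p = 0.476), and neither passed. Its median error was wider than that of 99.9% of 2048 genes of like expression, and the 95% interval in the ANKRD52 knockout ran from -0.49 to 2.01.

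SP5 encodes a zinc finger transcription factor of the SP family. Its implied level was 1.86 CPM in the AGO2 knockout, 2.65 CPM in the ANKRD52 knockout and 18.7 CPM in the double knockout, against 1.59 CPM in the parental line. The double knockout showed an 11.7-fold rise in the authors' deposited table (log2 fold change 3.55, SE 0.26, BH-adjusted p = 1.14e-39). SP5 also rose 1.66-fold in the ANKRD52 knockout in the authors' deposited table (log2 fold change 0.73, SE 0.26, BH-adjusted p = 0.0412). The F reading (BH-adjusted p = 0.185) and an adjusted p under 0.01 each ended this second call. In the AGO2 knockout SP5 had 0.23 (BH-adjusted p = 0.676) in the authors' deposited table.

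TNFRSF19, also called TROY, is a receptor of the tumour necrosis factor family that marks intestinal stem cells in mice. It had 3.88 CPM in the AGO2 knockout, 6.07 CPM in the ANKRD52 knockout and 35.1 CPM in the double knockout, against 5.49 CPM in the parental line, as implied levels. Its rise in the double knockout was 6.40-fold in the authors' deposited table (log2 fold change 2.68, SE 0.49, BH-adjusted p = 4.26e-07). The AGO2 knockout had -0.50 (BH-adjusted p = 0.568) and the ANKRD52 knockout 0.15 (BH-adjusted p = 0.886) in the authors' deposited tables.

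**Figure D2:**
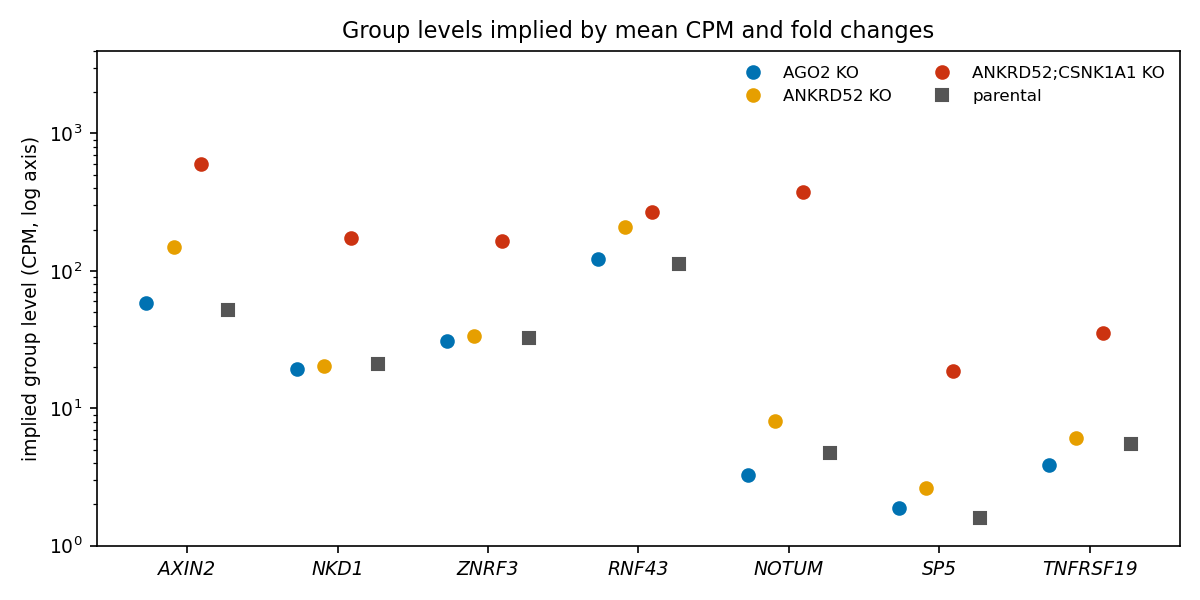
Implied group level in CPM on a log axis for each gene, with a circle for each knockout and a square for the parental line, and no error bars because the files hold no values of single libraries. For NOTUM the double knockout stands at 377 CPM against 4.75 CPM in the parental line, and for RNF43 at 267 against 113 CPM.

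The fold changes in the double knockout fell into an order in which only some neighbours were apart. The approximate 95% interval of NOTUM, 4.76 to 7.86, did not overlap that of SP5, 3.04 to 4.07. SP5, AXIN2 (2.84 to 4.24), NKD1 (2.46 to 3.62) and TNFRSF19 (1.72 to 3.63) overlapped one another. ZNRF3 (2.03 to 2.63) overlapped TNFRSF19 and NKD1 but not SP5 or AXIN2, and RNF43 (0.21 to 2.27) overlapped ZNRF3 and TNFRSF19. Among genes of like expression, RNF43 lay above 96.8% and NOTUM above 99.95% in the double knockout, with the other 5 genes between. In the ANKRD52 knockout AXIN2 lay above 99.4% of such genes and SP5 above 95.6%, and RNF43 and NOTUM, which did not pass, above 99.0% and 98.8%. NKD1 and ZNRF3 lay near the middle there, above 41.5% and 58.6%. In the AGO2 knockout NOTUM and TNFRSF19 lay low, above 0.830% and 4.13% of genes of like expression, with adjusted p-values that did not pass.

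**Figure D3:**
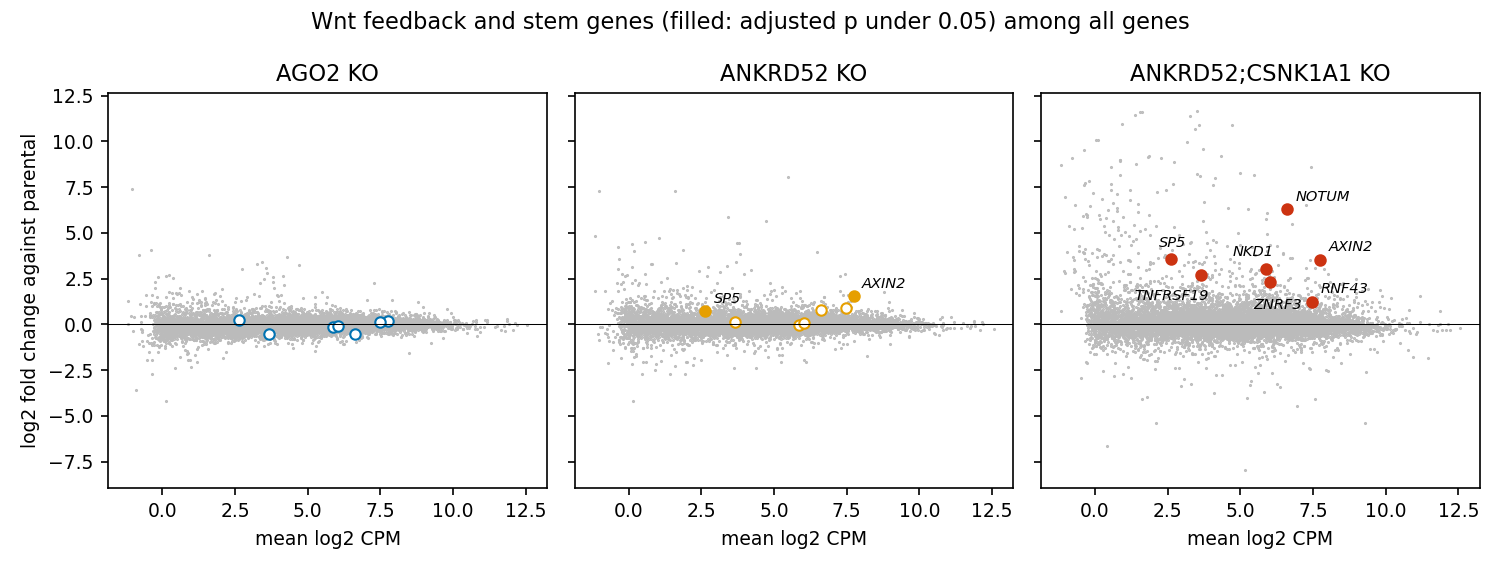
Log2 fold change against mean log2 CPM for all 12756 genes (grey) in each knockout, with the 7 Wnt genes as circles, filled where the adjusted p was under 0.05. In the double knockout all 7 circles are filled and lie between 1.24 and 6.31, in the ANKRD52 knockout AXIN2 and SP5 are filled, and in the AGO2 knockout none of the 7 is.

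The added loss of CSNK1A1 was read from the difference between the double knockout and the ANKRD52 knockout, in which the shared parental level drops out. It also holds any other difference between these lines. ANKRD52 RNA itself differed by -0.69 (SE 0.14, approximate BH-adjusted p = 8.82e-06), and its part in the values below was not tested. Of the 7 genes 6 were higher in the double knockout (approximate adjusted p under 0.05), against 18.5% of all genes higher and 15.7% lower. The median difference was 2.53 log2 units, against 0.00 over all genes. NOTUM differed by 5.55 (SE 0.72, BH-adjusted p = 4.01e-13), NKD1 by 3.08 (SE 0.29, BH-adjusted p = 1.04e-24) and SP5 by 2.82 (SE 0.26, BH-adjusted p = 5.53e-25). TNFRSF19 differed by 2.53 (SE 0.47, BH-adjusted p = 1.20e-06), ZNRF3 by 2.28 (SE 0.15, BH-adjusted p = 8.06e-49) and AXIN2 by 2.01 (SE 0.34, BH-adjusted p = 9.22e-08). AXIN2, which had risen most of the 7 in the ANKRD52 knockout, was thus 4.02-fold higher again in the double knockout. RNF43 did not pass, at 0.35 (SE 0.52, BH-adjusted p = 0.648), with an interval of -0.67 to 1.37.

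**Figure D4:**
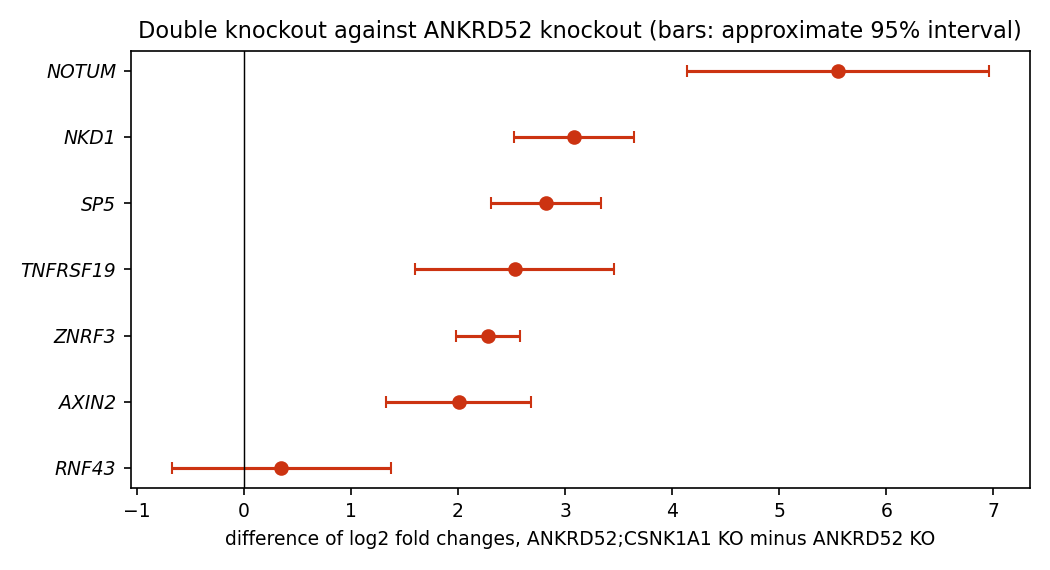
Difference of log2 fold changes, double knockout minus ANKRD52 knockout, with approximate 95% intervals. The intervals of 6 genes lie above 0, from AXIN2 at 2.01 to NOTUM at 5.55, and that of RNF43 (-0.67 to 1.37) crosses 0.

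The ANKRD52 knockout was set against the AGO2 knockout in the same way, a comparison added after the values were seen. AXIN2 was higher in the ANKRD52 knockout by 1.37 log2 units (SE 0.33, approximate BH-adjusted p = 0.00148), 1 of 7 genes called, against 5.58% of all genes higher and 3.75% lower. This call ended when the squared errors were summed as if the tables shared no libraries (BH-adjusted p = 0.156) or a t distribution with 8 degrees of freedom was used (BH-adjusted p = 0.151). SP5 had a difference of 0.51 (95% interval -0.01 to 1.03, BH-adjusted p = 0.231), and NOTUM 1.30 (0.05 to 2.54, BH-adjusted p = 0.196). RNF43 had 0.78 (-0.23 to 1.80, BH-adjusted p = 0.370) and TNFRSF19 0.65 (-0.26 to 1.55, BH-adjusted p = 0.421), and neither passed. The differences of NKD1 (0.07) and ZNRF3 (0.14) were smaller, with intervals of -0.47 to 0.62 and -0.16 to 0.43.

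Among other Wnt target genes in the double knockout, rises and falls were mixed, and the counts stand against 22.9% of all genes called higher and 20.1% called lower. Of 17 transcription factors described as beta-catenin targets 14 had a row, 6 rose and 1 fell, with a median log2 fold change of 0.23 against 0.01 over all genes. TBX3, a T-box repressor, rose 14.6-fold, SOX9, a crypt transcription factor, 2.97-fold, and the homeobox gene MSX1 2.66-fold in the authors' deposited table (BH-adjusted p = 1.56e-40, 1.06e-13 and 3.29e-06). Of 25 surface, secreted and cell cycle targets 20 had a row, 10 rose and 4 fell, with a median of 0.66. BAMBI, a decoy receptor for TGF-beta and BMP ligands, rose 19.6-fold, and the growth factors FGF9 and FGF18 rose 19.6-fold and 11.6-fold in the authors' deposited table (BH-adjusted p = 4.20e-19, 4.66e-25 and 2.54e-27). Those that fell were ID2 (log2 fold change -0.77) among the transcription factors, and ENC1 (-2.09), CD44 (-1.49), MET (-0.90) and BIRC5 (-0.37) among the rest. In the ANKRD52 knockout 4 and 8 members of these lists rose and 0 and 2 fell, with medians of 0.31 and 0.49, against 0.00 over all genes and against 7.62% of all genes higher and 6.04% lower. In the AGO2 knockout 2 and 1 rose and 0 and 2 fell, with medians of 0.10 and 0.05, against 3.38% of all genes higher and 2.72% lower.

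Other genes described as marking intestinal stem cells went in both directions in the double knockout: of 19 listed 13 had a row, 5 rose and 3 fell, against the same 22.9% and 20.1% of all genes, and the median was 0.01, equal to that of all genes to 2 decimals. The count that fell was near the share over all genes. Beside SOX9, which is on this list too, the cell cycle kinase CDK6 rose by 1.63 on the log2 scale (BH-adjusted p = 0.000296) and the receptor regulator LRIG1 fell by 1.15 (BH-adjusted p = 2.51e-06) in the authors' deposited table. Among 10 other Wnt inhibitors 6 had a row, 2 rose and 2 fell, too few to set against those shares. The Dishevelled-binding protein DACT1 rose 3.94-fold and the Dickkopf receptor KREMEN1 2.19-fold, while the secreted inhibitor DKK1 fell, with a log2 fold change of -2.38, in the authors' deposited table (BH-adjusted p = 0.00137, 1.34e-08 and 0.000173). The median of these 6 was -0.28, while the inhibitors AXIN2, NKD1, ZNRF3, RNF43 and NOTUM each rose. All these genes were chosen with earlier results known, so the contrast only describes them.

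The core of the pathway was read last. Of 17 destruction complex genes and nuclear partners, all with a row, 0 rose and 4 fell in the double knockout (median -0.09). Over all genes 22.9% were called higher and 20.1% lower. The count that fell was near its share over all genes and includes CSNK1A1, the gene targeted in this knockout. The count that rose was under its share. Apart from the targeted CSNK1A1, the transcription factor TCF7L2 had -1.07 and APC2 -0.99 in the authors' deposited table (BH-adjusted p = 1.46e-09 and 0.00579). CTNNB1, which encodes beta-catenin itself, had -0.09 (BH-adjusted p = 0.431) in the authors' deposited table. Among 13 receptor and Dishevelled genes 12 had a row, 4 rose and 3 fell (median -0.08), against the same shares, among them LRP6 at 0.56, LRP5 at -0.68 and FZD1 at 0.43 in the authors' deposited table (BH-adjusted p = 1.51e-08, 4.70e-07 and 0.0121).

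**Figure D5:**
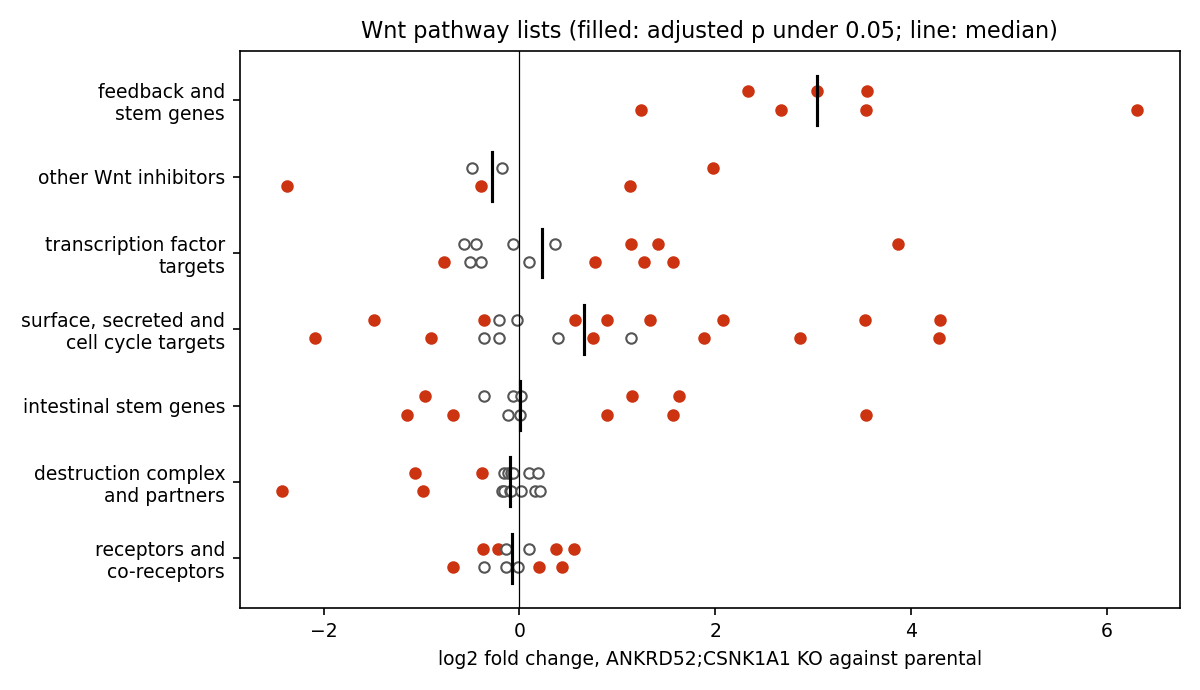
Log2 fold change in the double knockout for the genes of 7 Wnt lists, 1 row per list, filled where the adjusted p was under 0.05, with a line at each list's median. The feedback and stem genes have a median of 3.04, while the other 6 lists have medians between -0.28 and 0.66. All 7 lists were chosen with earlier results known.

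The genes whose 3 log2 fold changes lay nearest to those of AXIN2 and of NKD1 were found by Euclidean distance over the 3 comparisons, which share the parental libraries. The 11870 candidates were all other genes at or above 1 in mean log2 CPM. Nearest to AXIN2 was FGF18 (distance 0.14), with 0.31, 1.53 and 3.54 in the AGO2, ANKRD52 and double knockouts in the authors' deposited tables, followed by FAM189A1 (0.49), PMEPA1 (0.50), SLC16A6 (0.63) and SEMA3B (0.65). For NKD1 the nearest were SERINC2 (distance 0.24), AHR (0.26), S100A2 (0.28), KLK6 (0.29) and TAGLN (0.34), each with a log2 fold change between 2.95 and 3.31 in the double knockout in the authors' deposited table. Values close to those of AXIN2 or NKD1 follow from this choice by distance. Among the 7 genes themselves, ZNRF3 and TNFRSF19 were closest (0.55), NKD1 and TNFRSF19 next (0.56), and RNF43 and NOTUM farthest apart (5.11). AXIN2 and SP5, the pair that rose in the ANKRD52 knockout, were 0.80 apart.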

How the data were processed

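Per the labels' protocols, 12 HCT116 libraries were made from polyA RNA with a stranded kit. The tools edgeR 3.8.6, featureCounts 1.4.6 and TopHat2 2.0.12 and the hg19 build are listed in the submitters' processing notes, with no role. The deposited tables, 1 for each of 3 knockouts, hold the authors' log2 fold change and mean log2 CPM, a likelihood ratio score, and p-values with adjusted values, per the file headers. For 12756 of 12756 genes in each table, the deposited p-values equalled chi-square tails of the likelihood ratio with 1 degree of freedom, and adjusted values their Benjamini-Hochberg values (relative tolerance 1e-06). The mean log2 CPM was the same in the 3 tables.

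Standard errors were rebuilt as absolute log2 fold change over the root of the likelihood ratio, and 95% intervals as 1.96 of these. A difference between knockouts took the mean of both squared errors as its variance, which assumes equal spread in the 3 groups, with a normal test adjusted over 12753 genes (double minus ANKRD52) or 12752 (ANKRD52 minus AGO2). The arithmetic was run on simulated data drawn with these errors, which does not test the errors themselves. The count tests planned for values of single samples were not run, since the files hold none, and the authors' tables were used.

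The genes and lists were chosen with earlier results of these data known. Named were all members, the targeted genes and 5 genes nearest AXIN2 and NKD1. Up to 3 called genes per list were also named, with the largest change in the double knockout and mean log2 CPM not under 0. LYZ, VWF, ACTA2, COL1A1, CTNNB1, ID2, ENC1, CD44, MET and BIRC5 were added after their values were seen. Symbols were matched to RefSeq GRCh38.p14 for order and sequence; hg19 positions were not used. Scripts ran in Python 3.11.15 with scipy 1.17.1, numpy 2.4.6, matplotlib 3.10.9 and pandas 2.3.3.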

Additional observations from a re-analysis of the deposited data

How the results depend on the processing

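Of 175 values of single genes under alternatives, 167 kept their direction and side of the threshold, 8 lost a call and 0 reversed. Only the median centring altered an effect size, and by little, so a reversal was hardly possible. The 167 include values of genes not called at first, which could hardly gain a call because most alternatives were stricter. The 7 calls in the double knockout became 6 at an adjusted p under 0.01 and with the F distribution, without RNF43 in each case. The 2 calls in the ANKRD52 knockout became 1 at an adjusted p under 0.01, 1 with an absolute log2 fold change of at least 1, and 0 with the F distribution. The 6 calls of the double minus the ANKRD52 knockout stayed at 6 under 5 alternatives. The 1 call of the ANKRD52 minus the AGO2 knockout, which was added after the data were seen, became 0 with summed squared errors and 0 with a t distribution. The cause of these changes was not tested. The count for the AGO2 knockout was 0 under 5 alternatives. No paired analysis was possible because the files hold no values of single libraries. For the same reason no replicate could be left out, no other normalization was run, and depth sets no stated limit.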

Other observations

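Genes beside the 7 on their chromosomes were read as a description of the surroundings, with the 5 measured genes on each side in GRCh38.p14 order. In the double knockout the median log2 fold change of these 10 neighbours was between -0.11 and 0.10 for AXIN2, SP5, NKD1, ZNRF3 and NOTUM, far under that of the gene between them. For RNF43, on chromosome 17, it was 0.45, with 6 of 10 neighbours higher and 1 lower, against 1.24 for RNF43 itself in the authors' deposited table. For TNFRSF19, on chromosome 13, it was 0.67, with 6 higher and 0 lower, against 2.68 for TNFRSF19 in the authors' deposited table. The neighbours called higher and lower were 4 and 1 for AXIN2 and for SP5, and 3 and 2 for ZNRF3. They were 1 and 2 for NKD1 and for NOTUM. Over all genes 22.9% were called higher and 20.1% lower in the double knockout.

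The highest neighbour of each of the 7 genes was singled out after the values were seen. FGF9 near TNFRSF19 had a log2 fold change of 4.29, RGS9 near AXIN2 2.13, GAD1 near SP5 1.60, VEZF1 near RNF43 1.14, KREMEN1 near ZNRF3 1.13, NOD2 near NKD1 0.64 and SIRT7 near NOTUM 0.30 in the authors' deposited table. FGF9 and KREMEN1 were already counted above among the Wnt targets and the other Wnt inhibitors, so they are not separate observations. LGR6, a receptor related to LGR5 and chosen after its value was seen, rose by 3.54 on the log2 scale (BH-adjusted p = 1.15e-14) in the double knockout in the authors' deposited table, at an implied level of 2.03 CPM in the double knockout against 0.174 CPM in the parental line.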
